A study of Drosophila melanogaster with 4 samples.

Results

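The mitochondrial mRNAs of mt:ATPase6 and mt:Cyt-b carried part of the errors listed in flies that overexpressed a mitochondrial RNA polymerase. They held 7 of the 51 errors listed in the E423P library and 45 of the 255 errors listed in the WT library. The 2 transcripts were chosen by gene, as the plus-strand mRNAs of complexes V and III with listed errors, and are 2 of the 9 transcripts with a listed error in either library. Of the 4 samples of the series, 2 are E423P and 2 are WT, and an error list was analysed for 1 library of each. The E423P flies overexpressed the E423P form of the mitochondrial RNA polymerase and the WT flies overexpressed its wild-type form. All were 2 weeks old, and the RNA came from mitochondria isolated from whole adult flies. The labels do not name the driver or the tissue of the overexpression, do not say whether the flies' own polymerase was still present, and include no flies without overexpression. With 1 error list per genotype, every test below compares 2 libraries, or transcripts within a library, and not the genotypes. All 9 listed transcripts are encoded by the mitochondrial genome.

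The mitochondrial RNA polymerase is a single-subunit enzyme that transcribes the mitochondrial genome into long precursors, from which the mRNAs are cut. A base that it misincorporates is found in the RNA but not in the DNA, so errors can be sought as rare mismatches between reads and the reference transcript. Whether a mismatch listed here arose in transcription was not tested. mt:ATPase6 encodes subunit a of the ATP synthase (complex V), which forms the path of the protons beside the rotating c ring. mt:Cyt-b encodes cytochrome b of complex III, the subunit that binds the b hemes and at which ubiquinol is oxidised. Both proteins lie in the inner membrane, and cytochrome b is the only complex III subunit made in the mitochondrion.

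mt:ATPase6 (FBgn0013672, transcript FBtr0433498) lies on the plus strand of the mitochondrial genome at 4062 to 4736 and spans 675 bases (BDGP6 assembly, Ensembl release 115). Its first 7 bases overlap the end of mt:ATPase8, which encodes another subunit of the ATP synthase, and its last base is the first of mt:CoIII, which encodes a cytochrome c oxidase subunit. mt:Cyt-b (FBgn0013678, transcript FBtr0433502) lies on the plus strand at 10499 to 11635 and spans 1137 bases. It is preceded by mt:ND6, a complex I subunit gene, with 3 bases between them, and followed by mt:tRNA:Ser-TGA with 2 bases between them. Each of the mRNAs is annotated as a single exon without untranslated regions. The listed positions of mt:ATPase6 ran from 71 to 631, so none lay in its overlaps with the neighbouring genes. Positions are printed as listed along the transcript. Whether the first base is 0 or 1 is not stated, and no reference sequence was at hand for comparison. No position was therefore converted to the genome and no sequence or amino acid change is given.

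The E423P library had a summed coverage of 320614 bases and the WT library 1345044 bases, a ratio of 0.238. The depth at listed positions over all transcripts ran from 102 to 294 reads in E423P (median 155) and from 103 to 790 in WT (median 292). No position with a depth of 100 or less was listed in either library, and the highest share of errors at a listed position was 0.980% in E423P and 0.971% in WT. A position below that depth could therefore not be seen to hold errors, and the lists do not say which positions were searched.

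**Figure D1:**
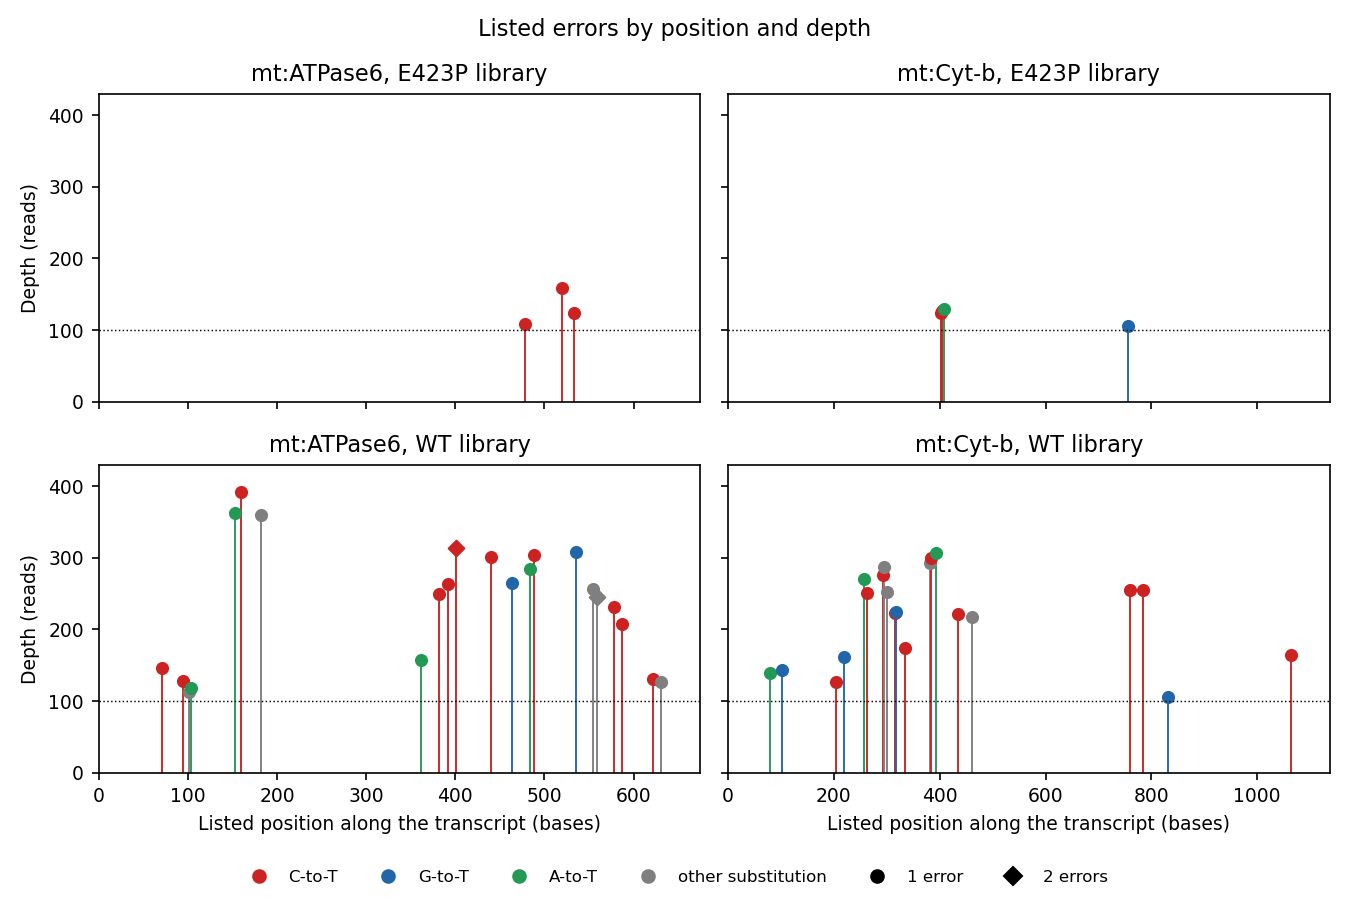
Each stem is a position of mt:ATPase6 (left) or mt:Cyt-b (right) with a listed error, in the E423P library (top) and the WT library (bottom). The horizontal axis is the listed position in bases and the vertical axis the depth in reads. Colours give the substitution, diamonds mark positions with 2 errors, and the dotted line marks a depth of 100. The 7 E423P positions, of which C403T and C404T overlap in the plot, sit between 106 and 159 reads, and the 43 WT positions between 106 and 392.

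The E423P library listed 3 errors in mt:ATPase6, all C-to-T and all between positions 478 and 533. In the names used here the reference base comes first, then the listed position and the listed base. C478T was 1 error among 108 reads, or 0.926% (95% Wilson interval 0.164 to 5.06). C520T was 1 error among 159 reads, or 0.629% (0.111 to 3.48), and C533T was 1 among 124 reads, or 0.806% (0.143 to 4.43). The intervals of these 3 changes overlap almost completely, so a single error gives no ranking of positions. They describe counting error only, as the lists carry no molecular identifiers. A position is listed only where it held an error, and no interval of a listed change given here allows for that selection.

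The WT library listed 24 errors in mt:ATPase6, at 22 positions. C-to-T made up 12 of them (50%, 31.4 to 68.6), A-to-T 4, G-to-A 3, G-to-T 2, T-to-A 2 and T-to-C 1. The C-to-T changes lay at positions 71, 95, 160, 382, 392, 401, 440, 488, 578, 587 and 622, with depths from 128 to 392 reads. No C-to-T change was listed before 71, between 160 and 382 or after 622. The A-to-T changes lay at 104, 153, 362 and 484 and the G-to-T changes at 464 and 535. T-to-A was listed at 101 and 555 and T-to-C at 182.

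Only 2 changes of either mRNA were listed with 2 errors, both in mt:ATPase6 of the WT library. C401T had 2 errors among 314 reads, or 0.637% (95% Wilson interval 0.175 to 2.29). G559A had 2 errors among 245 reads, or 0.816% (0.224 to 2.93). No listed position of E423P had a share of errors above 0.980%. At the E423P depths of 106 to 159 reads in the 2 transcripts, 2 errors would exceed that share. Whether such positions were filtered out is not stated, so the lack of changes with 2 errors in E423P is not a finding. G559A with the single G631A (1 of 126 reads, 0.794%) gave mt:ATPase6 its 3 G-to-A errors, against 1 in mt:Cyt-b of the same library and 0 of 7 in the 2 mRNAs of E423P. The single changes of mt:ATPase6 in WT ran from 0.255% at C160T, at a depth of 392, to 0.885% at T101A, at a depth of 113. For a single error this share is the inverse of the depth, so the range describes coverage.

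The E423P library listed 4 errors in mt:Cyt-b. C403T was 1 error among 124 reads (0.806%, 95% Wilson interval 0.143 to 4.43) and C404T, the next base, 1 among 127 reads (0.787%, 0.139 to 4.33). A408T was 1 error among 130 reads (0.769%, 0.136 to 4.23), and G755T was 1 among 106 reads (0.943%, 0.167 to 5.15). The first 3 lie within 6 bases, and the list does not say whether any of them came from the same read. The tests below count them separately, and no alternative merged neighbouring errors. Their p-values and exact intervals therefore assume independent errors. The fourth lay 347 bases further on, and none was listed before position 403 or after position 755.

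The WT library listed 21 errors in mt:Cyt-b, each at a position of its own. C-to-T made up 10 (47.6%, 28.3 to 67.6), at positions 205, 263, 292, 315, 334, 383, 434, 760, 785 and 1063, with depths from 126 to 300 reads. G-to-T followed with 4, at 103, 220, 317 and 832, and A-to-T with 3, at 80, 257 and 393. G295A, A300G, G382C and T461C were listed a single time each. With the transcript cut into 3 equal lengths, 12 of the 21 errors lay before position 379, 5 from 379 to 757 and 4 from 758 on. The same cut of mt:ATPase6 in WT gave 7 errors before position 225, 6 from 225 to 449 and 11 from 450 on. Between positions 461 and 760 of mt:Cyt-b, a stretch of 299 bases, WT listed no error, while E423P listed G755T at its end. The longest such stretch of mt:ATPase6 in WT was 180 bases, from 182 to 362. The coverage of these stretches is not given, so they set no limit on the error rate there. Single changes of mt:Cyt-b in WT ran from 0.326% at A393T, at a depth of 307, to 0.943% at G832T, at a depth of 106.

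mt:ATPase6 accounted for 5.88% of the E423P list (95% Wilson interval 2.02 to 15.9) and 9.41% of the WT list (6.41 to 13.6). The odds ratio of E423P to WT was 0.602 (95% exact interval 0.112 to 2.11), a difference no larger than the error of the counts (Fisher's exact test, two-sided, p = 0.590, adjusted p = 1 over 3 comparisons). mt:Cyt-b accounted for 7.84% of the E423P list (3.09 to 18.5) and 8.24% of the WT list (5.45 to 12.3), with odds 0.948 times those in WT (0.226 to 2.995, p = 1 and adjusted p = 1 in Fisher's exact test). The 2 transcripts together held 13.7% of the E423P list (6.81 to 25.7) and 17.6% of the WT list (13.5 to 22.8). Their odds ratio was 0.743 (0.265 to 1.81, p = 0.683 and adjusted p = 1 in Fisher's exact test). For the 2 transcripts together, odds from 0.265 to 1.81 times those in WT are within the interval, so the counts do not exclude a difference of that size. A share of the list depends on the coverage of the transcript as well as on its error rate, and the coverage per transcript is not given.

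**Figure D2:**
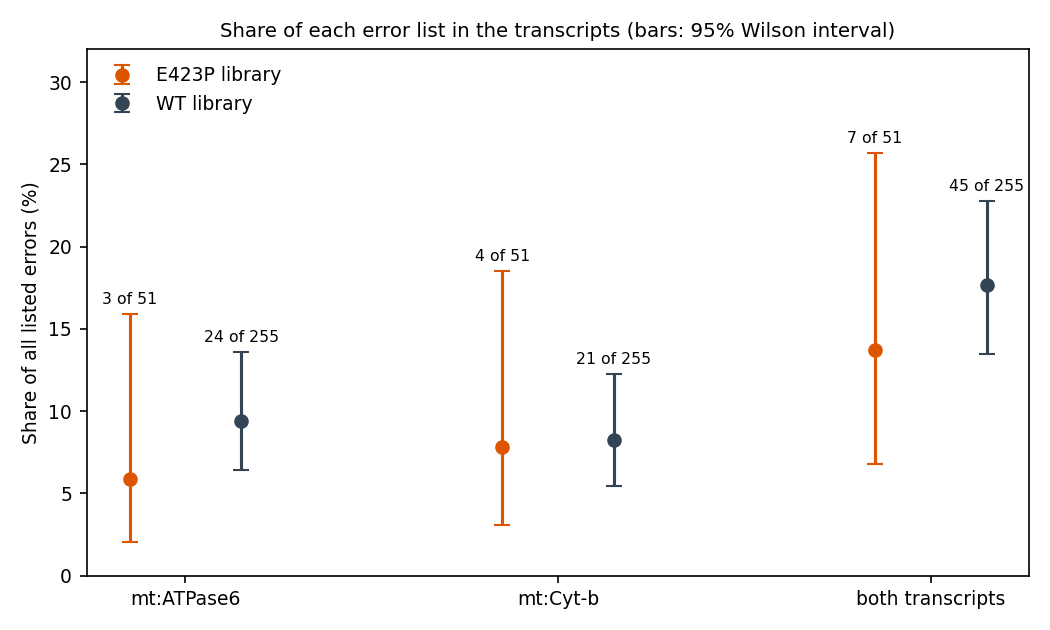
The vertical axis gives the share of all listed errors, in percent, that lay in mt:ATPase6, in mt:Cyt-b and in both, for the E423P library (left of each pair) and the WT library (right). Bars are 95% Wilson intervals, and the numbers above them are errors in the transcript of all errors in the list. The E423P and WT intervals overlap for each transcript and for the sum.

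In the order of error counts, mt:Cyt-b with 4 and mt:ATPase6 with 3 errors had ranks 4 and 5 of 8 transcripts in E423P, after mt:CoIII with 6. In WT, mt:ATPase6 with 24 errors had rank 3 of 9, next to mt:ND5 with 23, a complex I subunit gene, and ahead of mt:Cyt-b with 21. The shares of mt:ATPase6, mt:ND5 and mt:Cyt-b in WT (9.41%, 9.02% and 8.24%) lay within each other's Wilson intervals. Set against transcript length, mt:ATPase6 had 4.44 listed errors per kilobase in E423P and 35.6 in WT, and mt:Cyt-b had 3.52 in E423P and 18.5 in WT. In WT, mt:CoI had 66.4, mt:CoIII 62.1, mt:CoII 24.8 and mt:ND4L 20.6. Lower were mt:ND5 with 13.4, mt:ND1 with 8.52 and mt:ND4 with 3.73. Among the other transcripts with a listed error in E423P, densities ran from 0.582 in mt:ND5 to 16.9 in mt:CoI. These densities are not error rates, since they also follow the depth of each library and of each transcript.

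The median depth at listed positions was lower in the 2 transcripts than in the others pooled, in both libraries. In E423P the depth at their listed positions ran from 106 to 159 reads with a median of 124, and that of the other transcripts from 102 to 294 with a median of 159.5. In WT it ran from 106 to 392 with a median of 250 in the 2 transcripts, and from 103 to 790 with a median of 311 in the others. Errors at depths under 150 made up 6 of 7 in the 2 transcripts and 16 of 44 in the others in E423P, and 10 of 45 and 20 of 210 in WT. The ranges overlap in each library. The pooled median of the others also hides differences among them. In E423P the median was 176 reads in mt:CoI and 193 in mt:CoII, but 130 in mt:CoIII. Single positions were listed at depths of 154 in mt:ND1, 111 in mt:ND4L and 107 in mt:ND5. In WT the median was 367 in mt:CoI, 361.5 in mt:CoII, 342.5 in mt:CoIII and 320 in mt:ND1. It was 243 in mt:ND4L, 210 in mt:ND5 and 140 in mt:ND4, beside 253 in mt:ATPase6 and 225 in mt:Cyt-b. A low depth was thus shared with some of the other transcripts, but not with mt:ND1. Neighbouring positions share reads, so these depths are a description and were not tested. With errors at depths of 150 or more alone, the 2 transcripts held 1 of 29 errors in E423P and 35 of 225 in WT, a difference of -12.1 percentage points (two-sided Fisher's exact test, p = 0.0922, adjusted p = 0.277). The adjusted p ran from 0.277 to 1 over the 6 alternatives of this share. The part of depth in the shares was not tested.

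No position of either mRNA was listed in both libraries, so depth could only be set side by side at neighbouring positions. The WT position nearest to each E423P position was 2 to 15 bases away. At G535T in WT the depth was 308 reads, and at C533T in E423P, 2 bases before it, 124 reads. In mt:Cyt-b, the E423P depths of 124, 127 and 130 reads stood beside 307 reads at A393T in WT. Over the 7 positions the E423P depth was 0.380 to 0.516 times that of the nearest WT position, with a median of 0.414. A393T and G535T were each the nearest for more than a single position, so the 7 ratios are not independent. At the 13 changes of other transcripts that both libraries listed, depths were compared at the identical position. That ratio ran from 0.304 to 0.898 with a median of 0.397. All are above the ratio of the summed coverage, 0.238. Positions enter such a pair only where the E423P depth was above 100. Beside the WT depths of 255 to 308 reads, a ratio as low as 0.238 could not be seen. For the 7 positions a ratio above 0.238 was thus fixed in advance.

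Of the distinct changes listed in E423P, 0 of 7 in the 2 transcripts were also listed in WT, against 13 of 42 in the other transcripts. For a share of 0 the limit was set at 3 counts, in place of the Wilson interval used for the other shares. By that limit 0 of 7 allows a share of up to 42.9%, and the difference did not pass the test (two-sided Fisher's exact test, p = 0.167, adjusted p = 0.222). Of the distinct WT changes, 0 of 43 in the 2 transcripts, which by the same limit allows up to 6.98%, and 13 of 180 in the others were also listed in E423P (Fisher's exact test, p = 0.0783, adjusted p = 0.222). Changes with 2 or more errors in WT made up 2 of 43 in the 2 transcripts and 25 of 180 in the others (Fisher's exact test, p = 0.120, adjusted p = 0.222). These 3 comparisons, and that of the errors to T given below, were chosen after the values had been seen and adjusted over the 4. At low depths 2 errors would exceed 0.971%, the highest share listed in WT, so such a change may not have been listable there. The median depth at listed positions was lower in the 2 transcripts, as given above, and its part in these counts was not tested.

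In the 2 transcripts together, more errors were C-to-T than any other substitution, in both libraries. C-to-T made up 5 of their 7 errors in E423P (71.4%, 95% Wilson interval 35.9 to 91.8) and 22 of their 45 errors in WT (48.9%, 35.0 to 63.0). The odds ratio was 2.57 (95% exact interval 0.372 to 29.6), so the counts do not separate the libraries (Fisher's exact test, two-sided, p = 0.422). All 7 E423P errors of the 2 transcripts were changes to T, as were 35 of the 45 WT errors (77.8%, Fisher's exact test p = 0.322, adjusted p = 0.322). In the other transcripts 35 of 44 E423P errors (79.5%) and 175 of 210 WT errors (83.3%) were changes to T. With 7 errors in E423P, a substitution with 0 errors there may still have been as frequent as in WT.

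**Figure D3:**
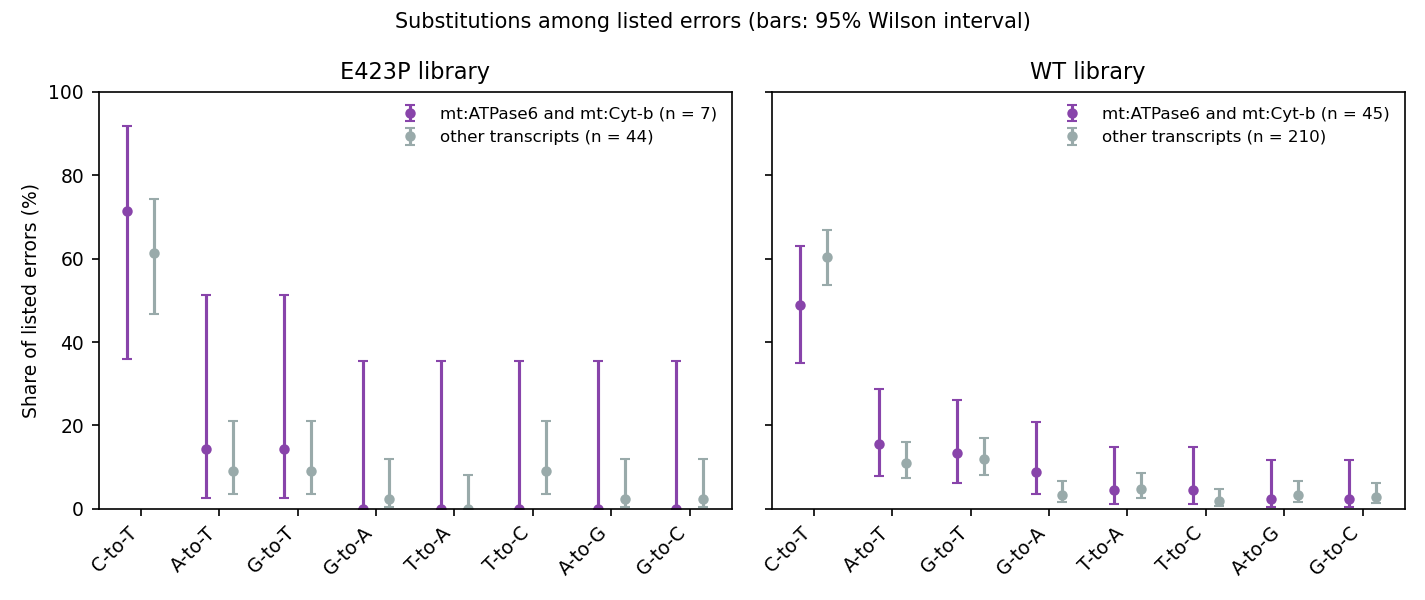
The vertical axis gives the share of listed errors, in percent, of each substitution listed in mt:ATPase6 or mt:Cyt-b, in the E423P library (left) and the WT library (right). Purple points are the 2 transcripts together, grey points the other transcripts, and bars are 95% Wilson intervals. C-to-T is the highest point in each, at 71.4% and 61.4% in E423P and at 48.9% and 60.5% in WT, and the intervals of the 2 transcripts and the others overlap for every substitution shown.

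Within the WT library, the C-to-T share of the 2 transcripts was 48.9% (22 of 45) and that of the other transcripts 60.5% (127 of 210). The odds ratio was 0.626 (95% exact interval 0.311 to 1.26), and the difference did not pass the test (two-sided Fisher's exact test, p = 0.183, adjusted p = 0.422 over 3 comparisons). The C-to-T share was 50.0% in mt:ATPase6 (12 of 24) and 47.6% in mt:Cyt-b (10 of 21), an odds ratio of 1.10 (0.292 to 4.15, p = 1 and adjusted p = 1 in Fisher's exact test). G-to-A made up 4 of 45 errors in the 2 transcripts (8.89%, Wilson interval 3.51 to 20.7) and 7 of 210 in the others (3.33%, 1.62 to 6.72). A-to-T made up 15.6% of the errors in the 2 transcripts and 10.95% in the others, and G-to-T 13.3% and 11.9%. The intervals of the 2 transcripts and of the others overlapped for these 3 substitutions, which were not tested.

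Both mRNAs are coding from their first base, so the remainder of a position divided by 3 gives its place in the codon once the numbering is known. Counted from 1, a remainder of 0 is the third codon position, and counted from 0, a remainder of 2 is. Of the 7 E423P errors in the 2 transcripts, 1 had a remainder of 0, 3 a remainder of 1 and 3 a remainder of 2. Of the 45 WT errors, 5 had a remainder of 0, 18 a remainder of 1 and 22 a remainder of 2. The remainder of 2 was most frequent in mt:ATPase6 of WT, with 14 of 24 errors (58.3%, 95% Wilson interval 38.8 to 75.5), 9 of them C-to-T. In mt:Cyt-b of WT the remainder of 1 was most frequent, with 10 of 21 (47.6%, 28.3 to 67.6), and the remainder of 2 had 8. These intervals overlap. If positions are counted from 1, the third codon positions held 11.1% of the WT errors in the 2 transcripts and 18.6% in the others (odds ratio 0.549, 95% exact interval 0.159 to 1.52, two-sided Fisher's exact test, p = 0.282, adjusted p = 0.422). If they are counted from 0, the shares were 48.9% and 45.2% (odds ratio 1.16, 0.576 to 2.32, Fisher's exact test, p = 0.742). The difference did not pass the test under either numbering. The others include minus-strand transcripts, and the strand convention of the lists is not given, so their remainders may not give the codon position. Against the other plus-strand transcripts alone, counted from 1, the counts were 5 of 45 and 37 of 168. That difference was -10.9 percentage points (two-sided Fisher's exact test, p = 0.139, adjusted p = 0.278). The base composition of each codon position in these mRNAs was not used here, so the counts are not rates per codon position.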

How the data were processed

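Per the submitters' processing notes, FastQC, cutadapt, Bowtie2 and SAMtools were used; versions, error caller, filters, strand convention and genome build are not given in the sources used here. Libraries were made from Trizol-extracted RNA with an Illumina TruSeq kit, per the labels' protocols. The error lists and coverage summaries are counts as deposited by the authors: errors and depth per position, and summed coverage per reference base. A change with several errors stands on as many lines (checked for all 306 lines), so 1 line was 1 error. Depth medians are over positions.

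The gene table deposited by the authors gave coordinates only, the same as in the annotation for both genes; the names of its 2 columns of counts could be tied to no labelled sample, so gene counts were not used.

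Shares carry 95% Wilson intervals (the 0 shares of changes listed in both libraries, a limit of 3 counts), odds ratios conditional exact intervals. Two-sided Fisher's exact tests were adjusted by the Benjamini-Hochberg method within each family, with calls at an adjusted p of 0.05. The test of list shares between libraries was tried on simulated counts with independent errors, and the adjustment on a fixed example. The other steps were not simulated. Python 3.11.15, scipy 1.17.1 and matplotlib 3.10.9 were used.

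The transcripts and comparisons were chosen with earlier results of these data known. Named changes were those listed in E423P, listed in both libraries, or with 2 or more errors in WT; the other WT positions are given to show the data. Alternatives were counting each change a single time, leaving out changes listed in both libraries, a depth of at least 150, leaving out the most affected position (the first by position where tied), leaving out C-to-T or mt:CoI errors, and comparing with plus-strand transcripts.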

Additional observations from a re-analysis of the deposited data

How the results depend on the processing

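Of 38 values of the 7 comparisons under an alternative, 31 kept their direction and 7 did not, and none passed an adjusted p of 0.05, as in the reported values (Fisher's exact test, lowest adjusted p 0.277). Differences are in percentage points, E423P minus WT. Leaving out changes listed in both libraries turned the share of mt:Cyt-b to 2.02 and that of both transcripts to 0.0905. No such change lies in the 2 transcripts, so this step shortens only the rest of the lists. The share of mt:Cyt-b, reported as -0.392, also turned to 0.149 without C-to-T errors and to 2.27 without mt:CoI errors. The C-to-T difference of mt:ATPase6 minus mt:Cyt-b in WT, reported as 2.38, turned to -2.94 at depths of 150 or more and to -2.16 without C401T. C401T and G559A were tied with 2 errors each and the first by position was left out. Leaving out G559A, an alternative chosen after the data were seen, gave 6.93. The third codon position difference in WT, the 2 transcripts minus the others, was -7.46 with positions counted from 1 and 3.65 counted from 0, also chosen after the data were seen. The share of mt:ATPase6 stayed lower in E423P under its 6 alternatives, from -11.3 to -1.93. The cause of the shifts other than the first was not tested. The 7 errors of the E423P library limit every comparison between libraries. No paired analysis was possible because a single error list was analysed for each genotype, and for the same reason no library could be left out.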

Other observations

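Some listed positions of mt:ATPase6 and mt:Cyt-b lay close together. Whether they lay closer than positions placed at random was not tested, and the spacing in the other transcripts was not measured. The counts below therefore describe the lists and do not show clustering particular to these mRNAs. In the WT library, 16 of the 22 listed positions of mt:ATPase6 and 10 of the 21 of mt:Cyt-b had another listed position of the same transcript within 10 bases. In the E423P library this held for 0 of 3 positions of mt:ATPase6 and 3 of 4 of mt:Cyt-b. Bases next to each other were listed at G382C and C383T of mt:Cyt-b in WT, at depths of 292 and 300 reads, and at C403T and C404T in E423P, at depths of 124 and 127 reads. The lists hold neither read names nor the depth of unlisted positions, so whether neighbouring errors share a read was not tested.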
